A study of Mus musculus with 6 samples.

Results

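Litter 1 and litter 2 of this series each gave the ventricles of 1 control and 1 knockout mouse embryo, and the text below describes how the litters differed across genes. Litter membership comes from the labels: control 1 and knockout 1 are littermates of litter 1, and control 2 and knockout 2 are littermates of litter 2, so 4 of the 6 samples are compared, 2 against 2. All 4 are single embryos of stage E12.5 on a C57BL/6 background, somite-matched per the series' design text, with 2 floxed Vhl alleles. Controls are wild type at Nkx2.5, and knockouts carry a Cre allele there (Nkx2.5 Cre/+), so that they lack Vhl where Cre is active and are also heterozygous for Nkx2.5. The Vhl protein is part of a ubiquitin ligase through which hypoxia-inducible factors (HIF) are broken down when oxygen is present. Control 3 (litter 3) and the library labelled knockout 3 (litter 4) have no labelled littermate and appear only as reference values. The labels thus name 4 litters, whereas the design text speaks of 3.

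Between litters, embryos can differ in exact developmental age, in how much blood stays in the chambers, in handling before lysis and in where the tissue was cut. The dissection removed the atria and the valve region. In the embryonic heart, endocardial cells around the atrioventricular canal and outflow tract turn into mesenchyme and fill the cushions that become valves, while the inner ventricular wall forms trabeculae, muscle ridges that mature ahead of the outer compact wall. Nucleated red cells with embryonic globins circulate through these chambers, and platelet precursors and macrophages are present in small numbers.

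The 4 libraries held 9067805 to 12592902 reads over 13843 genes. Values are the deposited normalised values, and levels per library are given in the order control 1 and knockout 1 (litter 1), then control 2 and knockout 2 (litter 2). Vhl checked the genotype labels, with 33.7 and 11.1 in litter 1 and 36.3 and 10.3 in litter 2. In control 3 it stood at 38.6 and in the library labelled knockout 3 at 34.5, which goes against the latter's label. Ventricular muscle genes were abundant in all 4 libraries, with summed values over 16 genes of 39187 and 37391 in litter 1 and 35094 and 32901 in litter 2, and 0 of the 16 passed the litter test. Xist, the RNA that silences 1 X chromosome in female cells, was at 1500 in control 1, 48.9 in knockout 1, 1.59 in control 2 and 1407 in knockout 2. The high-Xist libraries were thus the control of litter 1 and the knockout of litter 2, so Xist status balances across litters and across genotypes and lies wholly in the remainder that the litter test uses as error. The labels do not give the day of dissection, the RNA extraction batch or the sequencing lane of each litter, and such factors cannot be told apart from litter.

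Across all genes the litter difference was smaller than the genotype difference and partly shared by both genotypes. It was estimated per gene as litter 1 minus litter 2 on log2(value + 1) with genotype in the model (limma with trend), and genes with a Benjamini-Hochberg adjusted p under 0.05 are called. By this rule 81 genes were higher in litter 1 (0.585% of genes tested) and 198 were higher in litter 2 (1.43%), 279 in all (2.02%). Without adjustment, 1630 genes had a p under 0.05. Genotype called 1125 genes in the same fit (8.13%). Of the variation around each gene's mean over the 4 libraries, summed over genes, litter held 35.1%, genotype 46.98% and the remainder 17.9%. The median litter difference was 0.00 and the median of its absolute size was 0.11 on the log2 scale.

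The control pair and the knockout pair share no library, so the litter difference can be read in each separately. The sign was the same in both pairs for 57.3% of genes, and Pearson's r between the pairs was 0.32 and Spearman's rho 0.23 across genes, which are not independent replicates. The corresponding values for knockout minus control in litter 1 against litter 2 were 64.4%, 0.45 and 0.42. Among the 279 called genes, 122 had a mean value under 10, of which 100 were higher in litter 2. With 1 residual degree of freedom the error rests largely on spread pooled over genes. DESeq2 on the recovered reads called 29 and 57 genes in place of 81 and 198. With genotype left out of the model 1 and 3 were called, and with 1 library left out as well at most 2 and 8, since 3 libraries cannot carry both terms with an error estimate.

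**Figure D1:**
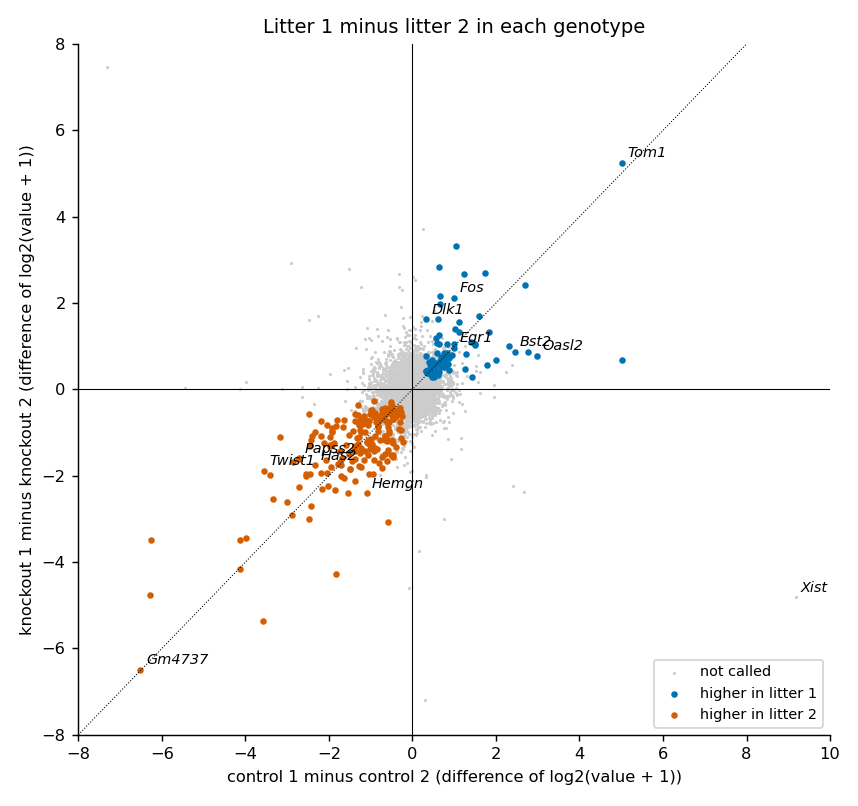
Litter 1 minus litter 2 for every gene, as the difference of log2(value + 1), in controls (horizontal) and in knockouts (vertical); blue points were called higher in litter 1 and orange points higher in litter 2. The dotted line marks equal differences. Twist1 lies at -3.56 and -1.89, Oasl2 at 2.98 and 0.78, and Xist, which was not called, at 9.18 and -4.82.

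Many valve and cushion genes were higher in litter 2. Of 24 measured genes, 14 were called higher in litter 2 and 0 in litter 1, with a median litter difference of -0.83 (-1.31 in controls and -0.79 in knockouts). The share of all genes called higher in litter 2 was 1.43%. In bulk tissue, fewer cells of a type and less RNA per cell cannot be told apart. Both libraries of litter 2 lay above both of litter 1 for 15 of the 24 genes, against 16.8% of all genes (and 15.5% of all genes with litter 1 above).

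Transcription factors of cushion mesenchyme were among the called genes. Twist1 (chromosome 12, 33957671 to 33959829 on GRCm38), a factor of migrating mesenchyme, stood at 1.11 and 4.20 in litter 1 and at 23.8 and 18.2 in litter 2. Its litter difference was -2.72 ± 0.30 (SE), a 6.595-fold higher level in litter 2 on this scale (limma adjusted p = 0.000386). Sox9 (chromosome 11, 112782224 to 112787760), which drives proliferation and matrix genes of cushion mesenchyme, was at 4.22 and 8.89 against 21.5 and 22.3, a difference of -1.67 ± 0.20 (limma adjusted p = 0.000682). In neither gene did the litters overlap. Snai1 and Snai2, repressors of epithelial genes during the endocardial transition, differed by -1.34 and -1.10. Msx1 (-1.41) and Prrx1 (-1.86), homeobox genes of mesenchyme, were also called.

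Genes of the signals and the muscle border of the atrioventricular canal were also called. Bmp2, the signal from canal muscle that starts cushion formation, was at 2.55 and 4.20 in litter 1 and at 18.3 and 11.9 in litter 2 (-1.88 ± 0.24, limma adjusted p = 0.0012). Tbx2 and Tbx3, repressors that keep canal muscle from taking on chamber character, differed by -1.84 and -1.73. Tbx3 stood at 3.33 and 2.99 against 13.2 and 12.4, so the control and the knockout of each litter were nearly level. Nfatc1, a factor of the endocardium that lines the cushions, differed less, by -0.57.

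Cushion matrix genes were mixed. Has2 (chromosome 15, 56665627 to 56694539), the enzyme that makes the hyaluronan of cardiac jelly, was at 2.66 and 2.99 in litter 1 and at 17.4 and 12.4 in litter 2 (-2.04 ± 0.20, limma adjusted p = 0.000177). Hapln1, which links hyaluronan to proteoglycans, differed by -1.05, Cthrc1 by -1.67 and the cartilage collagen Col2a1 by -0.61. Vcan, the main cushion proteoglycan, had a difference of -0.10 and values of 955 and 897 against 1049 and 940, and was not called. Postn, a matrix protein of valve mesenchyme and fibroblasts, was low in control 1 alone, with 93.9 and 279.6 against 292.5 and 205, and was not called either. Msx2, Scx, Tgfb2, Prrx2, Adamts19, Cdh11, Acan and Fmod were the other members not called.

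The remaining libraries fell on either side. Control 3 lay nearer litter 2 for 14 of the 14 called cushion genes, with Twist1 at 14.6 and Sox9 at 19.8. The library labelled knockout 3 lay nearer litter 1 for 11 of the 14, with Twist1 at 2.38 and Sox9 at 5.13. Among all 198 genes called higher in litter 2, control 3 lay nearer litter 2 for 72.2%. For the library labelled knockout 3 that share was 42.9%. Of the 24 genes 3 were called for genotype, and 8.13% of all genes were. The count higher in litter 2 was 14 with either other pseudocount, 13 with edgeR, 7 after a correction for GC content and length and 6 with DESeq2. With the pseudocount of 5 and with edgeR, 1 gene was also called higher in litter 1. Among the 12 members with a mean value of at least 10, 5 were called higher in litter 2 and 1 in litter 1, with a median of -0.41 in place of -0.83. The median was -0.85 after the GC and length correction and -0.94 with DESeq2. The summed level of the list was 1690 and 1883 in litter 1 and 2247 and 2051 in litter 2.

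**Figure D2:**
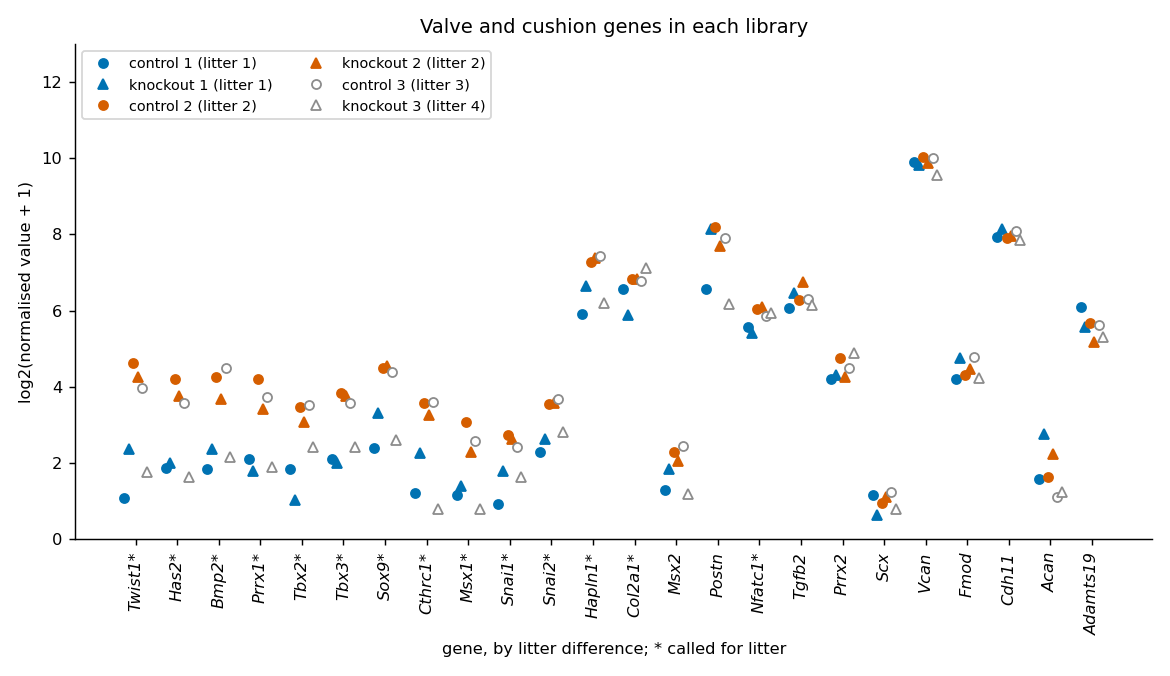
Level of each of the 24 valve and cushion genes, as log2(value + 1), in each of the 6 libraries; blue is litter 1, orange litter 2, grey outlines are litters 3 and 4, circles are controls and triangles knockouts, and asterisks mark the 14 called genes. For Twist1 litter 1 lies at values of 1.11 and 4.20 and litter 2 at 23.8 and 18.2, while for Vcan the litters overlap.

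Among the 12 named genes with a mean value of at least 10 and the largest called differences towards litter 2, several outside the list had both libraries of litter 2 above both of litter 1. Papss2, which makes the sulphate donor for proteoglycans, was at 3.99 and 7.68 against 31.9 and 25.2 (-2.16 ± 0.22, limma adjusted p = 0.000211), with 22.4 in control 3 and 3.48 in the library labelled knockout 3. Col9a1, a collagen of cartilage-type matrix, differed by -2.14, Unc5c, a netrin receptor, by -1.79, Shisa2 by -1.63, the matrix protein Tnc by -1.44 and Prss35 by -1.18. Thbs1, a matrix glycoprotein, was at 73.9 and 94.2 in litter 1 and 186 and 207 in litter 2 and had the smallest adjusted p of these 12 (-1.22 ± 0.09, limma adjusted p = 1e-05). In these 7 genes control 3 was nearer to litter 2 than to litter 1, and the library labelled knockout 3 was below both of its libraries.

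Other tissue-margin lists had smaller shares of called genes than the cushion list. Of 12 atrial muscle genes 0 were called (median -0.02), including Myl7 (643 and 1275 against 606 and 1110). Of 7 measured genes of the outflow tract and second heart field, Rspo3, a secreted enhancer of Wnt signalling, was called higher in litter 2 with values of 0.444 and 1.54 against 8.47 and 6.75. Smooth muscle and pericyte genes gave 2 of 17 higher in litter 2, elastin (Eln, -0.999) and the pericyte receptor Pdgfrb (-0.49). Fibroblast matrix genes gave 3 higher in litter 2 and 1 higher in litter 1 of 20. The shares of all genes called were 1.43% higher in litter 2 and 0.585% higher in litter 1. Pdgfra, a receptor of cardiac mesenchyme, was at 30.1 and 41.8 against 76.1 and 70.8 (-1.03 ± 0.12, limma adjusted p = 0.000773), whereas Dcn, a small proteoglycan of fibroblasts, was at 67.6 and 116 against 50.8 and 74.4 (0.52 ± 0.09, limma adjusted p = 0.0115).

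The epicardium, the outer cell layer of the heart, leaned the other way. Of 19 measured genes, 18 had a difference above 0 and 2 were called higher in litter 1 (median 0.23). Of all genes 51.0% lay above 0 and 0.585% were called higher in litter 1. Krt8, an epithelial keratin, was at 11.3 and 76.5 in litter 1 and at 7.05 and 24.0 in litter 2. Aldh1a1, a retinoic acid enzyme, was at 4.22 and 15.8 against 1.93 and 8.41. Both were also called for genotype, as were 14 of the 19 and 8.13% of all genes. Wt1, a defining factor of the epicardium, had a litter difference of 0.01. Of 32 endothelial and endocardial genes 0 were called and 25 lay below 0, against 49.0% of all genes, with a median of -0.09. Liver genes were largely not measured (3 of 20, 0 called), and Tubb3, 1 of 7 measured neural genes, was called higher in litter 2 at a low level (0.444 and 0.970 against 4.53 and 2.89). The share of all genes called higher in litter 2 was 1.43%.

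Blood genes formed another group that was higher in litter 2. Of 30 red cell genes, 9 were called higher in litter 2 and 0 in litter 1, and 29 had a difference below 0 (median -0.63). Of all genes 1.43% were called higher in litter 2 and 49.0% lay below 0. The median was -0.21 in controls and -0.98 in knockouts, so the control pair differed less than the knockout pair, although the difference between the pairs was not tested. Under the correction for GC content and length 0 of the 30 were called while the median was -0.60, and DESeq2 called 1.

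Embryonic globins are made by the primitive red cells that fill the circulation at this stage. Hbb-bh1 was at 454 and 339 in litter 1 and at 631 and 1000.4 in litter 2 (-1.02 ± 0.18, limma adjusted p = 0.00969). Hba-x was at 1399 and 987 against 1931 and 2846 (-0.996 ± 0.19, limma adjusted p = 0.0164). In both genes the litters did not overlap, and knockout 2 was the highest. Hbb-y, the third measured embryonic globin, had a difference of -0.71 and was not called. Of the 4 measured adult globins 0 were called (median -0.38), and their summed level was 4796 and 2584 against 5209 and 4707. The globin genes are close copies of each other, so reads may be divided among them.

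Red cell genes other than globins repeated the order. Hemgn, a nuclear protein of red cell precursors, was at 6.43 and 8.49 in litter 1 and at 14.9 and 49.2 in litter 2 (-1.75 ± 0.24, limma adjusted p = 0.00165). The membrane skeleton gene Add2 differed by -1.01 and the anion exchanger Slc4a1 by -0.72. Car2, carbonic anhydrase of red cells, was at 75.8 and 56.1 against 107 and 127 (-0.83 ± 0.13, limma adjusted p = 0.00449). Tal1, Ermap and Bpgm were also called, whereas Tfrc, the transferrin receptor of every dividing cell, was the 1 member above 0 (0.29, not called). Outside the list, the water channel Aqp1, carried by red cells and endothelium, was at 16.1 and 9.86 against 28.6 and 34.6 (-1.25). Aqp1 stood at 36.4 in control 3 and at 17.2 in the library labelled knockout 3, unlike the called list members. Control 3 was nearer litter 1 for 9 of the 9 called red cell genes and the library labelled knockout 3 nearer litter 2 for 8, the opposite of their places for cushion genes. Among all 198 genes called higher in litter 2, 72.2% had control 3 nearer litter 2. For the library labelled knockout 3 that share was 42.9%.

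Platelet and megakaryocyte genes gave 7 of 12 higher in litter 2 and 0 in litter 1 (median -1.06, with -0.72 in controls and -1.15 in knockouts), where 1.43% of all genes were called higher in litter 2. Pf4, a platelet chemokine, was at 2.00 and 2.75 against 7.38 and 12.5 (-1.67 ± 0.21, limma adjusted p = 0.000982). Itga2b, the alpha chain of the fibrinogen receptor, was at 12.4 and 9.54 against 21.2 and 36.2, and its partner Itgb3 at 18.6 and 15.2 against 28.7 and 41.5. Litter 1 was low in every one of the 7, while control 3 was above both litters in each of the 7, with 56.1 for Itga2b and 71.5 for Itgb3. This is the reverse of its place for the red cell genes. Tubb1, Treml1, Ppbp and Gp1ba were the other called members, each with a mean value under 10. After correction for GC content and length 1 of the 12 was called, with a median of -1.03. F13a1, a clotting factor subunit of macrophages and platelets, was the 1 called gene of 14 macrophage genes (1.55 and 1.13 against 6.38 and 4.99).

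Cushion and red cell genes did not share 1 order over the libraries, since control 3 was high for the cushion genes and low for the red cell genes. For the called platelet genes control 3 was high, as for the cushion genes. The part that blood content or the place of the cut had in other litter differences was not tested.

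**Figure D3:**
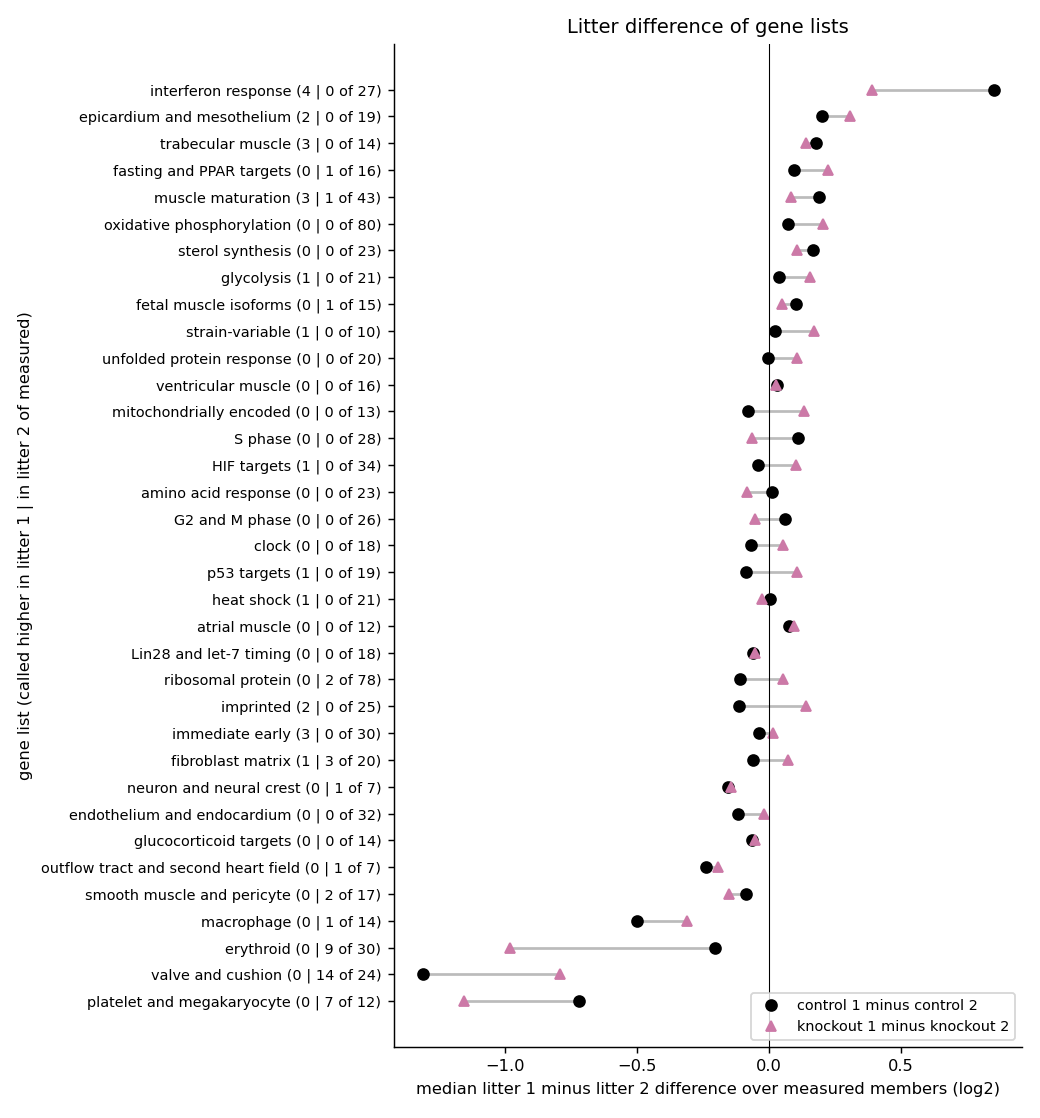
Median litter 1 minus litter 2 difference (log2) of each gene list with at least 5 measured members, in controls (black circles) and in knockouts (pink triangles), with the counts called higher in litter 1 and in litter 2 beside each name. Platelet, valve and cushion, and red cell lists lie farthest below 0 with overall medians of -1.06, -0.83 and -0.63, and the interferon list farthest above 0 at 0.67.

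Muscle maturation genes showed small differences, most of them towards litter 1. Of 43 genes that increase as heart muscle matures, 3 were called higher in litter 1 and 1 higher in litter 2, and 31 had a difference above 0 (median 0.14). Of all genes 0.585% were called higher in litter 1, 1.43% were called higher in litter 2 and 51.0% lay above 0. Control 1 was the highest of all 6 libraries for 19 of the 43, against 18.7% of all genes. Of the called members, 3 were also called for genotype. Mb, the oxygen store of muscle (chromosome 15, 77015487 to 77050670), was at 212 and 134 in litter 1 and 143 and 87.4 in litter 2 (0.59 ± 0.08, limma adjusted p = 0.00223). Casq2, the calcium buffer of the sarcoplasmic reticulum, was at 163 and 286 against 104 and 191 (0.61 ± 0.08, limma adjusted p = 0.00165). Corin, the protease that activates natriuretic peptides, differed by 0.45. Lpl, which frees fatty acids from lipoproteins, went the other way, with 263 and 146 against 311 and 226 (-0.43 ± 0.10, limma adjusted p = 0.0439), and neither edgeR nor DESeq2 called it. For Mb and Casq2 each genotype was 0.56 to 0.65 higher in litter 1.

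Trabecular muscle gave 3 of 14 genes higher in litter 1 and 0 in litter 2 (median 0.20), where 0.585% of all genes were called higher in litter 1. After the GC and length correction 1 of the 14 was called, with a median of 0.17. Bmp10, a growth factor of trabecular muscle (chromosome 6, 87428994 to 87437677), was at 78.0 and 71.0 in litter 1 and at 42.0 and 42.3 in litter 2. This was a difference of 0.81 ± 0.10, or 1.75-fold (limma adjusted p = 0.000682), and control 3 (46.8) and the library labelled knockout 3 (40.5) were close to litter 2. Gja5, the connexin of trabeculae and conduction fibres, was at 260.5 and 176 against 209 and 103, and the guidance ligand Slit2 at 350 and 229 against 265 and 167. The trabecular peptides Nppa (0.39) and Nppb (0.20) were not called.

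Energy metabolism leaned the same way without calls. Of 80 oxidative phosphorylation genes, 74 had a difference above 0, against 51.0% of all genes, and 0 were called (median 0.14, with 0.07 in controls and 0.20 in knockouts). Control 1 was the highest of all 6 libraries for 40 of the 80, against 18.7% of all genes. The limma adjusted p was 0.068 for Atp5l, an ATP synthase subunit, which was at 170 and 160 in litter 1 and at 138 and 123 in litter 2. Of 13 mitochondrially encoded genes 0 were called, with a median of 0.04 and medians of opposite sign in the control pair (-0.08) and the knockout pair (0.13).

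Lists that mark developmental timing gave few calls. Of 18 genes of the Lin28 and let-7 timing system 0 were called (median -0.02), and Lin28b was at 14.5 and 14.9 against 15.2 and 13.1. Of 15 fetal muscle isoforms 1 was called, the T-type calcium channel Cacna1g, higher in litter 2 (4.33 and 3.48 against 11.3 and 6.75). The share of all genes called higher in litter 2 was 1.43%. Of 28 S phase genes and 26 G2 and M phase genes 0 were called, with medians of 0.03 and 0.01. A p that misses the threshold with 2 embryos a side does not show that the litters were equal in age.

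Few members of the stress lists were called. Immediate early genes, which are switched on within minutes of a stimulus, gave 3 of 30 higher in litter 1 with a list median of -0.04. Of all genes 0.585% were called higher in litter 1. Both libraries of litter 2 lay above both of litter 1 for 8 of the 30, against 16.8% of all genes. The reverse held for 3 of the 30, against 15.5% of all genes. With a mean value of at least 10 required, 3 were called higher in litter 1 and 2 higher in litter 2. Myc, a growth factor-induced transcription factor, had a difference of -0.60 (limma adjusted p = 0.0508) and was not called. Egr1 was at 40.3 and 49.4 in litter 1 and at 19.6 and 24.8 in litter 2 (0.99 ± 0.11, limma adjusted p = 0.000463). Fos was at 10.7 and 44.5 against 4.87 and 9.46 (1.55 ± 0.22, limma adjusted p = 0.00241) and Ccn1 at 93.7 and 127 against 54.96 and 81.1. In these 3 genes control 3 and the library labelled knockout 3 lay below both libraries of litter 1, with Egr1 at 20.9 and 19.5. Jun (73.2 and 74.0 against 71.2 and 74.0), Ier2 and Nr4a1 did not follow, and none of these was called.

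The constitutive chaperone Hspa8 was the 1 called gene of 21 heat shock genes. Hspa8 was at 2190 and 2198 in litter 1 and at 1394 and 1399 in litter 2, with littermates nearly level (0.65 ± 0.12, limma adjusted p = 0.0113). Perp, a p53 target of cell junctions, was the 1 called gene of 19 p53 targets (77.2 and 55.4 against 54.0 and 37.2). The share of all genes called higher in litter 1 was 0.585%. Amino acid response, unfolded protein response, glucocorticoid, sterol synthesis and clock lists gave 0 calls, with medians between -0.10 and 0.13. Of 23 sterol synthesis genes 19 had a difference above 0, and for 10 both libraries of litter 1 lay above both of litter 2, against 15.5% of all genes. Control 1 was the highest of all 6 libraries for 11 of the 23, against 18.7% of all genes.

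Interferon response genes had the largest list median towards litter 1, with control 1 the highest library for most members. Of 27 genes 4 were called higher in litter 1 and 0 in litter 2, 23 had a difference above 0, and the median was 0.67. The median was 0.85 in the control pair and 0.39 in the knockout pair, and control 1 was the highest of all 6 libraries for 19 of the 27 genes, against 18.7% of all genes. The summed level was 555 in control 1, 348 in knockout 1, 326 in control 2 and 289 in knockout 2, with 310.5 in control 3 and 365 in the library labelled knockout 3. Oasl2, an antiviral protein of the oligoadenylate synthetase family, was at 14.9 and 1.78 in litter 1 and at 1.01 and 0.613 in litter 2 (1.88 ± 0.39, limma adjusted p = 0.0281). Bst2, which tethers virus particles to the membrane, was at 39.6 and 15.8 against 6.46 and 8.15 (1.66 ± 0.27, limma adjusted p = 0.00546). Both litter 1 values lay above litter 2 in these genes, but the gap in the control pair was 2.98 for Oasl2 and 2.44 for Bst2, against 0.78 and 0.87 in the knockout pair. Rtp4 (7.21 and 3.07 against 1.93 and 0.964) and the peptide transporter Tap1 (2.22 and 4.61 against 0.587 and 1.14) were the other called members. Outside the list, Ifitm3 (23.0 and 8.41 against 4.95 and 4.91) and Parp9 (22.4 and 18.3 against 8.73 and 13.1), both interferon-induced, were among the 12 named for the largest called differences towards litter 1 at a mean value of at least 10. After correction for GC content and length 0 of the 27 were called, with a median of 0.68, and DESeq2 called 1.

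Interferon signals reach such genes through the interferon-stimulated response element, for which the promoters of the list were searched. The search used the letters GAAANNGAAA on both strands of the 250 bases before each gene start (RefSeq, GRCm38.p6), and matches may overlap. Of the 21 list genes with a promoter sequence 11 held a match, against 3.46% of 27025 genes. The list was made of interferon response genes, so this excess says nothing about the litters. Bst2 is shown as a called member with a match, and Gbp7, a guanylate-binding protein, because it shows a match on the other strand. Gbp7 was at 12.3 and 3.88 in litter 1 and at 3.36 and 2.72 in litter 2 and was not called. Capitals mark the fixed letters of each match, and both stretches are written along the strand of the gene, Bst2 from chr8:71537568-71537627 (minus strand) and Gbp7 from chr3:142530258-142530317 (plus strand).
Bst2: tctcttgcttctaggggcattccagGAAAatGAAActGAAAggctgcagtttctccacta
Gbp7: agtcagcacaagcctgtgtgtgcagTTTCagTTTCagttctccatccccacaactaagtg
In Bst2, 2 matches overlap, and the first starts 130 bases before the gene start. Of the other called members, Oasl2 and Tap1 had no match in the searched windows, and Rtp4 had no promoter sequence to search. A match describes the letters only.

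Genes that can differ by family were examined for the same pairs. Of 25 imprinted genes, expressed from 1 parental copy, Dlk1 and Zim1 were called higher in litter 1. The share of all genes called higher in litter 1 was 0.585%. Dlk1 was high in knockout 1 alone, with 52.4 and 119 against 41.6 and 38.1, and Zim1 differed evenly, with 88.4 and 82.5 against 68.3 and 60.3. Nnt, the mitochondrial transhydrogenase of which C57BL/6J mice carry a deletion, was the 1 called of 10 strain-variable genes (360 and 257 against 206 and 173, 0.68 ± 0.09, limma adjusted p = 0.00128). Values of this size in every library say nothing of which exons were present. Of 4 measured sex-linked genes 0 were called. Kdm6a, which escapes X silencing, was at 84.9 in control 1 and 68.6 in knockout 2, and at 48.8 in knockout 1 and 47.8 in control 2, the same split as Xist.

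Near-identical gene copies made up a large share of the litter calls. Of the 274 called genes with a transcript sequence, 56 (20.4%) had a near-identical copy in the table, against 4.72% of all genes and 5.21% of genes called for genotype. In 7 pairs the gene and its copy were called in opposite directions. The pair of Ahcy, the enzyme that hydrolyses S-adenosylhomocysteine (chromosome 2, 155059310 to 155074497, 10 exons), and Gm4737, a single-exon copy on chromosome 16 (46152985 to 46155077), is the plainest. Their transcripts differ at 6 of 2083 aligned bases. The same 100 bases of coding sequence are printed from each to show how little separates them, with the 2 bases that differ in capitals. Both are on the minus strand of GRCm38 (GENCODE M21), at chr2:155064854-155065563, which spans an intron, and chr16:46154495-46154594.
Ahcy: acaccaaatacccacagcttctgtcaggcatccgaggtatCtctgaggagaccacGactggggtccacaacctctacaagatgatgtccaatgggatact
Gm4737: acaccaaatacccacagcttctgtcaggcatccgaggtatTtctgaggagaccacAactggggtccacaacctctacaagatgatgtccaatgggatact
The remaining bases of the stretch are identical.

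Ahcy was at 138 and 128 in litter 1 and at 44.9 and 39.0 in litter 2 (1.64 ± 0.09, limma adjusted p = 7.38e-07). Gm4737 was at 0 in both libraries of litter 1 and at 90.3 and 89.1 in litter 2, at least 268-fold higher there against a floor of 3 reads per library. The sum of both was 138 and 128 against 135 and 128, so the litters differed in the split and by 0.01 on the log2 scale in the sum. Control 3 had nearly all of its 132 on Ahcy, and the library labelled knockout 3 had 48.5 on Ahcy and 88.5 on Gm4737.

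Tom1, an endosomal sorting gene on chromosome 8, and Gm5884, an intronless copy on chromosome 6, matched at 100% over 1479 bases. Tom1 was at 31.2 and 37.1 in litter 1 and at 0 in both libraries of litter 2, at least 119-fold higher in litter 1, while Gm5884 was at 1.89 and 0 against 33.5 and 39.9. Their sums were 33.1 and 37.1 against 33.5 and 39.9. Rps7, a ribosomal protein gene, and its copy Gm6472 on the X chromosome summed to 516 and 590 against 540 and 559, with Rps7 called higher in litter 2 (-0.88) and the copy higher in litter 1 (0.94). Carnmt1 and Gm8116, Nanp and Gm6741, Gm14288 and Gm14440, and Gm2956 and Gm8108 were the other opposite pairs, named after their values were seen. Over the 56 genes with a copy, the summed level of gene and copy differed by under 0.2 between litters for 29. Of these, 13 belong to the opposite pairs. For the other 16 the copy had at least 3.48 times the mean level of the gene, so the sum says little about them.

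**Figure D4:**
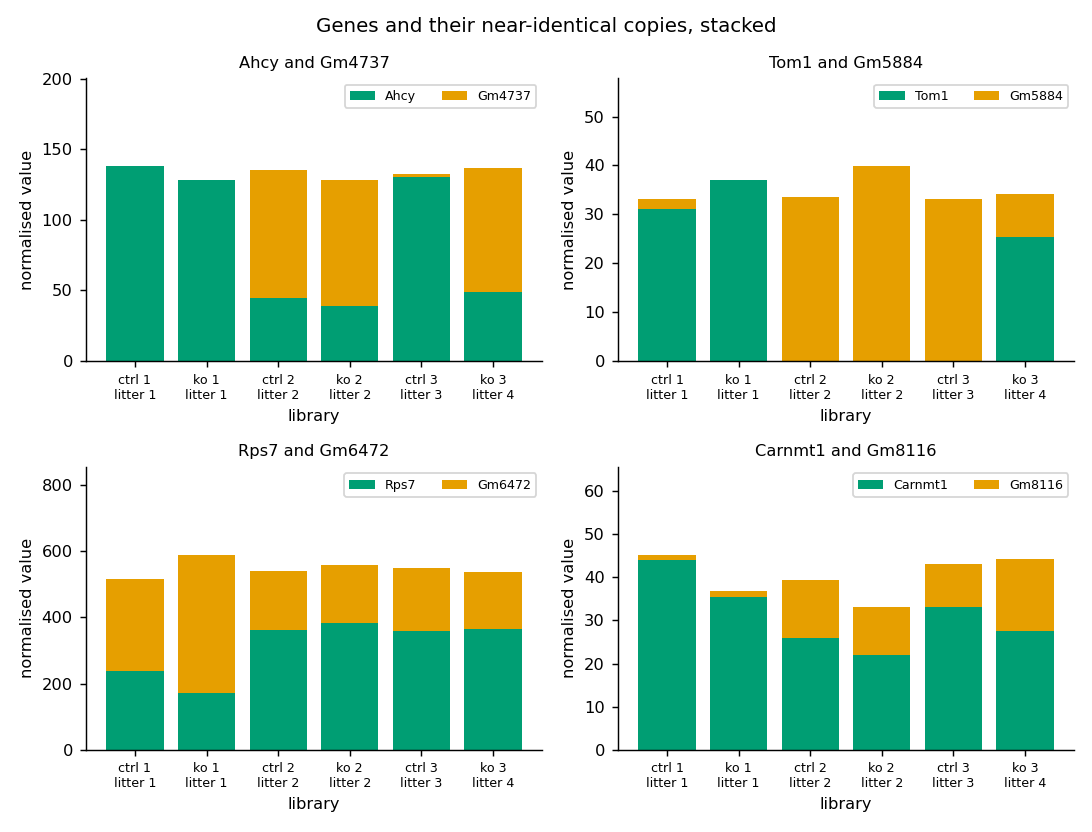
Normalised value of Ahcy, Tom1, Rps7 and Carnmt1 (green) with that of their near-identical copy stacked above (orange), in each library with its litter below. The heights are similar in all libraries, with Ahcy plus Gm4737 at 138 and 128 in litter 1 and 135 and 128 in litter 2, while the split differs between litters.

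By chromosome, called genes were most frequent on chromosome 14, with 30 of 504 (5.95%), and on the other autosomes and the X chromosome their share lay between 1.22% and 2.83%. Of those 30, 18 are unnamed Gm genes with a near-identical copy between 3133997 and 7568566 on that chromosome, and 17 of the 18 were higher in litter 2. For these 17 the sum of gene and closest copy had litter differences of -0.81 to -3.29 on the log2 scale. The sums of the opposite pairs named above differed by under 0.2, but Gm8108 is in both groups. Summed with Gm3739, its closest copy, it gave -0.81, and summed with Gm2956 it gave -0.13. The sum with Gm2956 was 3.66 and 6.55 in litter 1 and 8.31 and 3.51 in litter 2, so controls and knockouts differed in opposite directions. Reads may be divided among such near-identical genes, so the values of single members are uncertain. With genes in 5 equal groups by GC content, called shares were between 1.499% and 2.27%. The median litter difference ran from 0.09 in the group of lowest GC to -0.09 in the highest within knockouts, and from -0.0037 to -0.01 within controls.

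The litter difference touched a small part of the genes that follow genotype. Of the 1125 genotype-called genes 48 were called for litter (4.27% of them, and 17.2% of the litter-called genes), while 2.02% of all genes were called for litter. The median absolute litter difference was 0.14 among genotype-called genes and 0.11 among all genes. Of the 48, 11 were higher in litter 1 and in knockouts, 15 higher in litter 1 and lower in knockouts, 14 higher in litter 2 and in knockouts, and 8 higher in litter 2 and lower in knockouts. Both contrasts use the same 4 libraries and the same error estimate. With a mean value of at least 10 required, 92 genes were called for both, and DESeq2 gave 12.

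Several muscle genes were called for both litter and genotype. Cacna2d2, a calcium channel subunit, was at 87.3 and 49.6 in litter 1 and at 132 and 85.7 in litter 2, lower in knockouts by 0.71 and lower in litter 1 by 0.68. Casq2 was higher in knockouts (0.84) and in litter 1 (0.61), and Mb was lower in knockouts (-0.68) and higher in litter 1 (0.59). For Mb the knockout of litter 1 (134) stood close to the control of litter 2 (143). Gja5 likewise was lower in knockouts (-0.79) and higher in litter 1 (0.54).

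Other genes called for both were of mixed kinds. Krt8 was higher in knockouts by 2.14 and Fos by 1.40. For Fos, knockout 1 (44.5) stood apart from the other 5 libraries, which lay at 10.7 or below. Lgals9 (-0.60) and Perp (-0.50) were lower in knockouts, and Ccn1 (0.49) and Dcn (0.66) higher. Hemgn, at 49.2 in knockout 2, was also called higher in knockouts, with 6.43 and 8.49 in litter 1 and 14.9 in control 2.

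HIF target genes followed genotype and hardly differed by litter. Of 34 targets 30 were called higher in knockouts, with a median knockout difference of 1.44 in litter 1 and 1.37 in litter 2, and the median litter difference was 0.02. Of all genes 8.13% were called for genotype in either direction and 0.585% were called higher in litter 1. Like all lists here, that of the targets was chosen with earlier results of these data known. The summed level of the targets was 2336 in control 1 and 2387 in control 2, and 6282 in knockout 1 and 5605 in knockout 2. Car12, a carbonic anhydrase induced by HIF, was the 1 target called for litter, with 3.55 and 32.6 in litter 1 and 2.10 and 13.8 in litter 2 (0.87 ± 0.20, limma adjusted p = 0.0425). It was not called with the pseudocount of 5, with DESeq2 or after the GC and length correction. Egln3 (6.99 and 49.5 against 15.4 and 54.8) and Ndufa4l2 (0.666 and 34.3 against 2.60 and 46.1) differed by -0.59 and -0.76 and were not called. Of 21 glycolysis genes 14 were called higher in knockouts and 1, the lactate transporter Slc16a1, higher in litter 1, with 197 and 195 against 155 and 149. Slc16a1 was not called with edgeR, DESeq2, scaling to total reads or the GC and length correction.

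**Figure D5:**
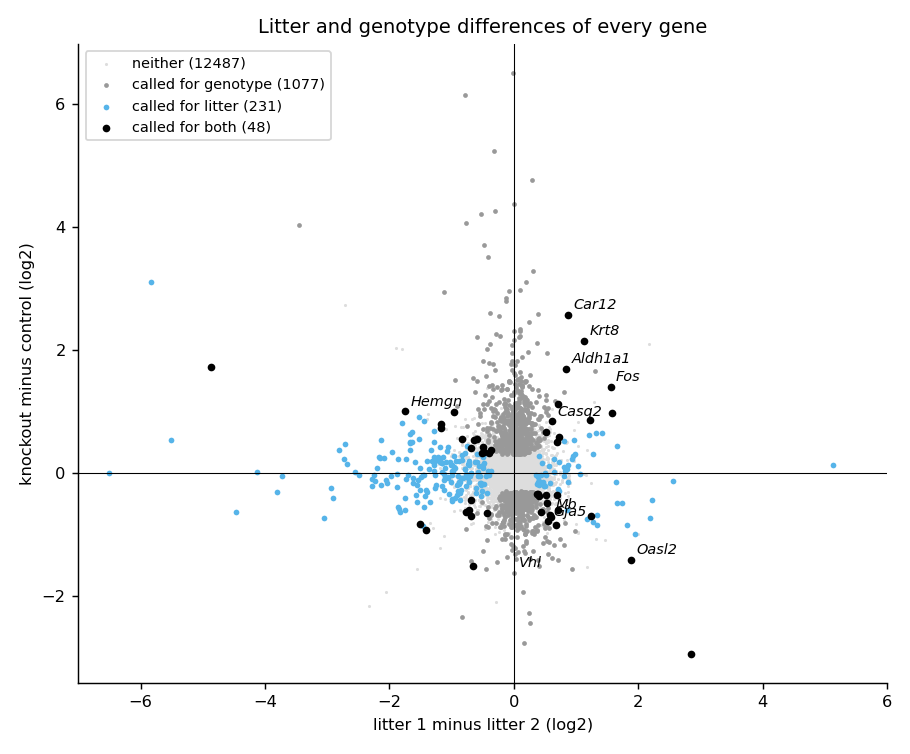
Litter 1 minus litter 2 (horizontal) and knockout minus control (vertical), both as log2 differences from the same fit, for every gene; black points are the 48 genes called for both. Most genotype-called genes (grey) lie near 0 on the litter axis, with Vhl at 0.00 for litter and -1.63 for genotype.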

How the data were processed

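Polyadenylated RNA of 6 ventricles was sequenced, and 4 libraries enter the tests. Per the submitters' processing notes, the authors used CASAVA 1.8.2, cutadapt 1.3 and RSEM 1.2.3 on GRCm38. For the annotation, filter and scaling, the sources used here give nothing. Every deposited gene reached 1 in 3 or more of the 6 libraries. Tubb3, under 1 in both libraries of litter 1, thus had to reach 1 in litter 2 and in litter 3 or 4. Tom1, at 0 in both libraries of litter 2, had to do so in litter 1 and in litter 3 or 4. For such genes the litter difference and the place of control 3 and the library labelled knockout 3 depend partly on this selection. The table deposited by the authors holds a normalised signal, not counts. Dividing each library by its smallest step gave whole reads for 100% of values (tolerance 0.01), and these were used as recovered reads. Libraries do not mark strand, and RSEM divides reads among similar loci.

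Names come from GENCODE M21 (13675 genes). The main test was limma 3.58.1 with trend (R 4.3.3) on log2(value + 1) with litter and genotype as terms, 1 residual degree of freedom and a prior of 11.3; knockout calls are therefore blocked by litter, which the labels give. Fold changes understate low genes. With 1 embryo per litter and genotype, the p-values rest on how unequal the litter difference was in the 2 genotypes and on spread pooled over genes. They do not measure spread among embryos of the same litter and genotype. In a simulated set of 13843 genes, changed and unchanged, litter changes of 2-fold were recovered for 90% of 50 genes. Changes of 1.5-fold were recovered for 54%, and there were 3 false calls. These rates were not split by level, so they do not describe the 122 called genes with a mean under 10. edgeR 4.0.16 and DESeq2 1.42.0 on recovered reads were alternatives.

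Copies were transcripts with at least 90% identity over at least 200 bases and 50% of the shorter. The members and the 43 gene lists were chosen with earlier results of these data known. Named genes were the 12 largest called differences each way with a mean of at least 10, the same sign in both pairs and a gene name, up to 4 members per list with the smallest p, Vhl, Hif1a, Nkx2-5 and sex-linked genes, and 10 genes called for both terms; further list members and copies were named after their values were seen. Ddx3y, Eif2s3y, Kdm5d and Uty were not analysed here. Some called list members are not reported here. Intervals between embryos rest on 2 samples a side.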

Additional observations from a re-analysis of the deposited data

Results flagged for a closer look

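Xist had opposite litter differences in the genotypes. Litter 1 minus litter 2 was 9.18 in controls and -4.82 in knockouts on the log2 scale, because control 1 and knockout 2 were high and control 2 and knockout 1 low. The difference between the pairs was not tested.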

How the results depend on the processing

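With genotype left out of the model, 1 gene was called higher in litter 1 and 3 in litter 2, in place of 81 and 198. Without the litter block, that is unpaired, 259 genes were higher and 83 lower in knockouts, in place of 681 and 444. DESeq2 called 29 and 57 genes for litter, 270 and 113 for genotype and 12 for both. The correction for GC content and length called 29 and 68 for litter and 13 for both, while the prior degrees of freedom fell from 11.3 to 5.59. With a mean value of at least 10, 92 genes were called for both. Summing near-identical copies, an alternative chosen after seeing the data, gave 124 genes higher in litter 1 and 85 called for both. With 1 library left out, and only the tested factor in the model, calls numbered 1 to 2 for higher in litter 1, 2 to 8 for higher in litter 2, 74 to 343 for higher and 5 to 139 for lower in knockouts. The lone library was assumed to vary like the others. All 83 named called genes that could be recomputed kept their direction under each alternative run; edgeR called 75 of them, DESeq2 35 and the correction for GC content and length 30, and without the genotype covariate 1 was called. Whichever library was left out, the difference moved by more than its standard error for 57 of the 83. Genotype was not in these models, so the shift is set by the knockout minus control gap within the litter that lost a library. It does not measure dependence on that library alone. Low counts limit the 122 called genes with a mean under 10.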
